A study of Mus musculus with 6 samples.

Results

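The hypothalamic patterning transcription factors are 35 genes whose proteins divide the embryonic hypothalamus into territories and keep neuron types apart. They were taken by name, with every probe set that the array annotation gives to the gene alone. In all, 34 of the 35 genes had at least 1 such probe set, and these held 72 of the 45037 probe sets tested. Bsx had none in the annotation used and was not analysed here. RNA had been hybridised to Affymetrix Mouse Genome 430 2.0 arrays, which read each transcript with sets of short probes placed mostly near its 3′ end. There were 3 arrays from POMCDicerKO mice, which lack the microRNA-processing enzyme Dicer in cells that express Pomc, and 3 from control mice with the genotype Ctrl. All mice were 2 weeks old, with C57Bl/6J, FVB/N and 129 in their mixed background, and the tissue was the dissected arcuate region of the hypothalamus. The sources used here do not name the Cre driver or the Dicer allele, or say what the controls carry of either.

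As background, the hypothalamus forms from the ventral forebrain under Sonic hedgehog from below and Wnt and BMP signals at its borders. These signals set domains of transcription factors. Nkx2-1 marks the tuberal and ventral domain that gives rise to the arcuate nucleus, Dlx genes mark strips that make GABA neurons, and Foxb1, Lmx1a, Barhl1 and Irx genes belong mostly to posterior territories. Many of these factors stay on in mature neurons, where they help to hold neuron identity. In mice, Pomc is switched on early in arcuate precursors, some of which later become other neuron types. The dissected piece holds many cell types besides Pomc neurons, so a change within those neurons would be diluted. In such bulk tissue, fewer cells of a type and less RNA per cell cannot be told apart.

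The promoters of Irx3, Lmx1b and Emx2 are shown because each gene read lower on all POMCDicerKO arrays than on any control array and RefSeq gives their start. Each covers 250 bases before to 50 after the start, on the gene's strand, in build GRCm38.p6. Irx3 lies at chr8:91801605-91801904 on the minus strand, Lmx1b at chr2:33641049-33641348 on the minus strand, and Emx2 at chr19:59458440-59458739 on the plus strand.
Irx3: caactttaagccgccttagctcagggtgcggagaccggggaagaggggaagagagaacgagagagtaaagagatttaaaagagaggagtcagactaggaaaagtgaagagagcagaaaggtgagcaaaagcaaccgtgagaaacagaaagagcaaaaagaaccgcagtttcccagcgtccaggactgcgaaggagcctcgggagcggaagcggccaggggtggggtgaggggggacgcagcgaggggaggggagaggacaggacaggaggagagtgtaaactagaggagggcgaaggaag
Lmx1b: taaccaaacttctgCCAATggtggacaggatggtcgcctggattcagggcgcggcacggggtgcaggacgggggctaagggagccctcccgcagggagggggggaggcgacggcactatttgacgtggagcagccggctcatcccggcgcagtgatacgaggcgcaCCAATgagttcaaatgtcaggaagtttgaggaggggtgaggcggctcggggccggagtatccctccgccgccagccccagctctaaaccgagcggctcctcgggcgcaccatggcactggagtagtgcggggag
Emx2: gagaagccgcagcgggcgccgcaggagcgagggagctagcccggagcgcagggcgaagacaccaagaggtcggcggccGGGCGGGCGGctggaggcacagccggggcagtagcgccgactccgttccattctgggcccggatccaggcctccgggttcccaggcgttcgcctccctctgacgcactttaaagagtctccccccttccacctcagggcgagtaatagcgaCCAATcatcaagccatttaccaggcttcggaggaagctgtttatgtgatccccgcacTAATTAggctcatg
Capitals mark matches on either strand to the homeodomain core TAATTA, the GC box GGGCGG and CCAAT. The Irx3 window held none of these motifs, the Lmx1b window 2 CCAAT, and the Emx2 window 1 homeodomain core, 2 overlapping GC boxes and 1 CCAAT. RefSeq gave a promoter for 25 of the 35 genes. Among those 25 promoters, 60% held GGGCGG, 44% held CCAAT and 8% held TAATTA. Over the 27025 genes with a promoter in the table the shares were 35.9%, 37.9% and 5.31%. The median GC content was 60.3% over the 25 promoters and 52.7% over all.

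Of the microRNAs that Dicer makes, miR-9 is abundant in the developing brain. It has been shown to act on Onecut2 in rat insulin-secreting cells and, together with miR-132, on Foxp2 in mouse cortex. Their mature sequences are given as background to those 2 factors, with the seed (bases 2 to 8) in capitals, as RefSeq lists them.
miR-9-5p: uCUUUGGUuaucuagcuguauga
miR-132-3p: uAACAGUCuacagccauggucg
The same miR-9-5p comes from genes on chromosomes 3, 7 and 13, and miR-132-3p from chromosome 11. The seeds of the pair differ. Mature microRNAs were not analysed here.

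No patterning factor passed the test. With limma and Benjamini-Hochberg adjustment over all 45037 probe sets, 0 of the 72 probe sets had an adjusted p under 0.05 (smallest adjusted p = 1), and the same held for 0% of the whole table. At an unadjusted p under 0.05 there were 6 of the 72, 3 higher and 3 lower, beside 2.44% of all probe sets (1.24% higher and 1.2% lower). For the rest of the text each gene is read at its probe set with the highest mean, unless another is named. At that probe set, 5 of the 34 genes had an unadjusted p under 0.05, 2 higher and 3 lower, beside 2.41% of 18193 genes. The POMCDicerKO and control values did not overlap for 7 of the 34 genes (20.6%), beside 6.44% of all genes. Of the 7, 2 were higher (2.58% of all genes) and 5 lower (3.86% of all genes) in POMCDicerKO. Over the 72 probe sets the groups were apart at 8, beside 6.36% of all. The members were chosen with earlier results of these data known, so none of these shares tests them against all genes. An absence of overlap between 3 and 3 arrays gives an exact permutation p of 0.1, the smallest that this design allows. The median log2 fold change of the 34 genes, POMCDicerKO minus control, was -0.02 (13 higher, 21 lower), and that of all genes was -0.01 (8165 higher, 10028 lower). Their median change without regard to sign was 0.064, against 0.051 for all genes.

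**Figure D1:**
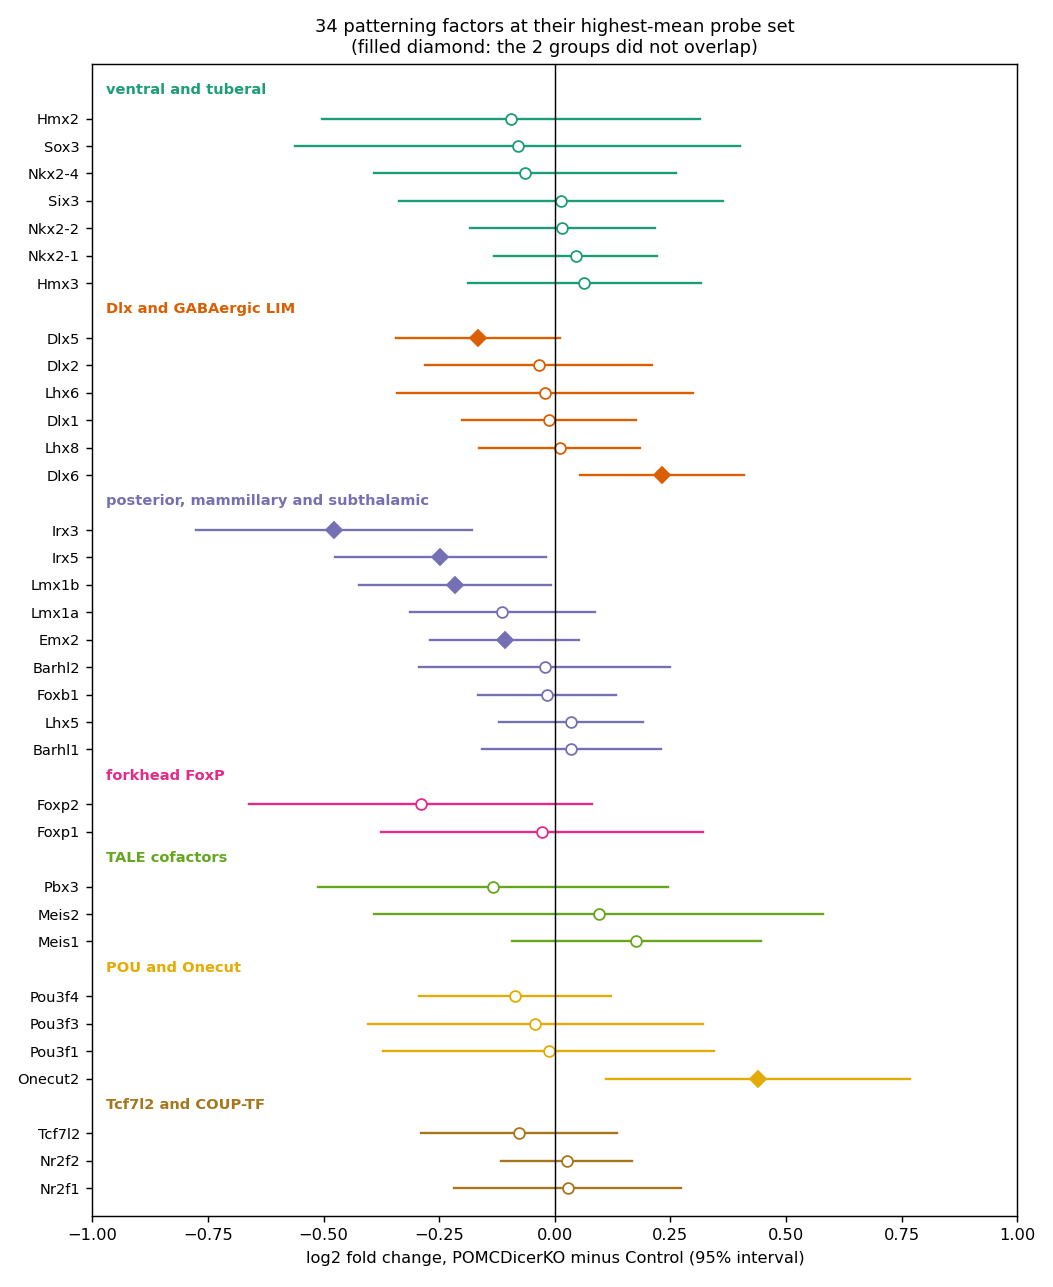
Log2 fold change (POMCDicerKO minus control, x axis) of the 34 factors at their highest-mean probe set, with limma's 95% intervals from 3 arrays a group, grouped by role. Filled diamonds mark the 7 genes whose groups did not overlap; the intervals of Irx3, Irx5, Lmx1b, Dlx6 and Onecut2 leave out 0, but no gene passed the adjusted threshold.

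The arrays resembled each other closely. Across probe sets, which are not independent of each other, Pearson r was 0.995 to 0.997 for arrays of the same group and 0.994 to 0.997 for arrays of different groups. Residual SDs had a median of 0.105 (log2) over probe sets. Dicer1 itself averaged 9.23 ± 0.082 in POMCDicerKO and 9.21 ± 0.032 in control (SD, n = 3 each) at 1460571_at. At 1427941_at its log2 fold change was 0.09 (SE 0.096). Neither reading checks the deletion, because loss in Pomc cells alone would be diluted and the probes may lie outside the deleted exons. Arcuate neuron genes were present: Npy read 10.38, 11.79 and 11.86 in POMCDicerKO, against 11.60, 12.32 and 12.03 in control.

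Among the 7 genes without overlap, Irx3 had the widest gap. Irx3 and Irx5 encode Iroquois homeodomain factors that lie in the same gene cluster on chromosome 8 and are active in posterior and thalamic territories of the forebrain. Irx3 (1418517_at) read 6.97, 6.47 and 6.81 in POMCDicerKO, against 7.26, 7.12 and 7.31 in control. All POMCDicerKO arrays were below all control arrays, with a gap of 0.145, and POMCDicerKO 2 was the lowest. The group means were 6.75 ± 0.26 in POMCDicerKO and 7.23 ± 0.098 in control (SD, n = 3 each). On the log2 scale the difference was -0.48 (SE 0.13, 95% interval -0.78 to -0.18), or 1.39-fold lower. This was the smallest unadjusted p of the 34 genes (0.00644 by limma), but its adjusted p = 1. Leaving out single arrays gave values from -0.59 to -0.34.

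Irx5 (1421072_at) read 6.02, 5.78 and 6.11 in POMCDicerKO, against 6.27, 6.13 and 6.26 in control. The groups were apart by only 0.013, and POMCDicerKO 2 was again the lowest array. Its log2 fold change was -0.25 (SE 0.098), or -0.15 without POMCDicerKO replicate 2. Irx6, the next Iroquois gene of that cluster, was at -0.11, and Irx1, Irx2 and Irx4, which lie elsewhere, were at 0.05, 0.04 and 0.11.

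The other posterior factors were Lmx1b, Emx2, Lmx1a, Barhl1, Barhl2, Foxb1 and Lhx5. Lmx1b is a LIM homeodomain factor of the posterior hypothalamus and of serotonin neurons. At 1441729_at it read 5.26, 5.32 and 5.26 in POMCDicerKO, against 5.68, 5.39 and 5.41 in control. The groups did not overlap, but control 1 stood above the other 2 controls. This gave a log2 fold change of -0.22 (SE 0.089), or -0.12 without Control replicate 1. The other Lmx1b probe set, 1421769_at, averaged 4.92 in both groups. Emx2, a homeodomain factor of dorsal forebrain and of the mammillary area, read 4.57, 4.47 and 4.62 in POMCDicerKO, against 4.63, 4.64 and 4.72 in control. Its groups were apart by 0.0084, far less than the SD of 0.076 in POMCDicerKO and 0.054 in control. Emx2 was at -0.11 (SE 0.069), and -0.066 without POMCDicerKO replicate 2.

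Lmx1a, which works beside Lmx1b in midbrain and posterior hypothalamic progenitors, read 4.08, 4.24 and 4.33 in POMCDicerKO, against 4.31, 4.42 and 4.26 in control. These ranges overlapped, at a log2 fold change of -0.11. Foxb1, a forkhead factor needed for the mammillary bodies, was at -0.018, the LIM factor Lhx5 at 0.035, and the Bar-type factors Barhl1 and Barhl2 at 0.036 and -0.021. Of the 9 posterior genes, 7 were lower and 2 higher, beside 10028 lower and 8165 higher of all 18193 genes. Their median log2 fold change was -0.11, beside -0.01 for all genes. By level, 7 of the 9 genes had means under 6, in the lower part of the scale where differences are compressed.

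**Figure D2:**
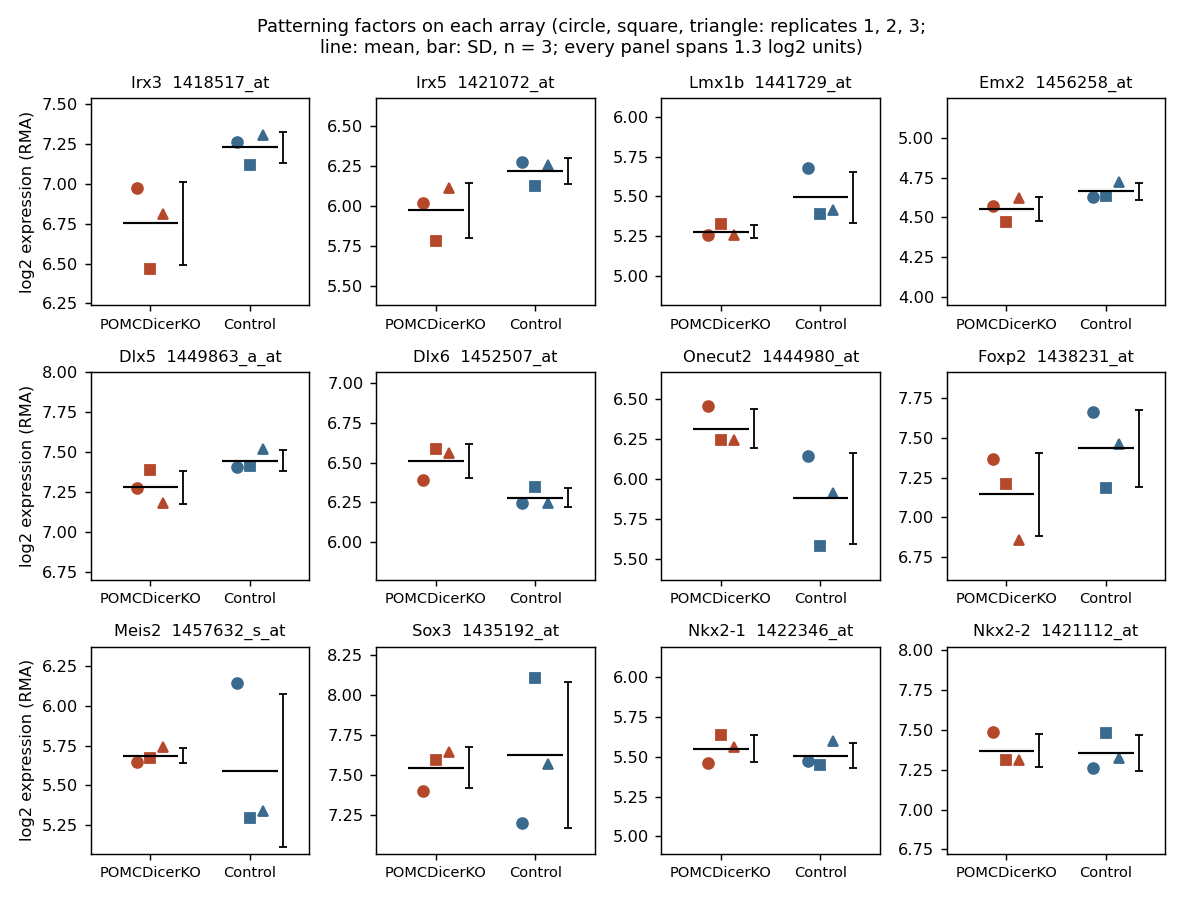
Log2 expression (y axis) of 12 factors on each array, POMCDicerKO left of control; circle, square and triangle are replicates 1, 2 and 3, the line is the mean and the bar the SD (n = 3). The panels share 1 scale length, so that the gap in Irx3 (0.145) can be set against the spread in Meis2 and Sox3, where single control arrays lie far from the rest.

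Dlx genes encode homeodomain factors that promote the GABA neuron fate, and they sit in the genome as pairs. Dlx5 and Dlx6 form such a pair on chromosome 6, and their values differed in opposite directions. Dlx5 (1449863_a_at) read 7.27, 7.39 and 7.18 in POMCDicerKO, against 7.41, 7.41 and 7.52 in control. The groups were apart by 0.019, at a log2 fold change of -0.17 (SE 0.077). Dlx6 (1452507_at) read 6.39, 6.59 and 6.56 in POMCDicerKO, against 6.25, 6.35 and 6.25 in control. Here all POMCDicerKO arrays were above all controls by at least 0.045, at a log2 fold change of 0.23 (SE 0.076). With single arrays left out, Dlx5 ran from -0.22 to -0.12 and Dlx6 from 0.19 to 0.29. Neither passed the adjusted threshold of limma (adjusted p = 1 for both), and each gene has a single probe set here. The difference between the 2 genes was not tested.

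The other Dlx pair differed by less than the spread between arrays. Dlx1 ranged from 8.90 to 9.16 in POMCDicerKO and from 8.99 to 9.06 in control, a log2 fold change of -0.013. Dlx2 ranged from 7.30 to 7.55 in POMCDicerKO and from 7.31 to 7.61 in control, a log2 fold change of -0.035. The LIM factors Lhx6 and Lhx8, which specify GABA and cholinergic neurons of the ventral forebrain, were at -0.021 and 0.01. Lhx8 averaged 4.07 in POMCDicerKO and 4.06 in control, in the lower part of the scale. Of the 6 genes of this group, 2 were higher and 4 lower, with a median of -0.017.

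Onecut2 was the gene with the largest positive difference. It encodes a cut-homeodomain factor that acts early in neuron differentiation and in endocrine cells. At 1444980_at it read 6.46, 6.24 and 6.25 in POMCDicerKO, against 6.14, 5.58 and 5.91 in control. No array of 1 group lay within the other, with a gap of 0.101, and control 2 was the lowest. The means were 6.32 ± 0.12 in POMCDicerKO and 5.88 ± 0.28 in control (SD, n = 3 each). The difference was 0.44 on the log2 scale (SE 0.14, 95% interval 0.11 to 0.77), or 1.36-fold higher. By limma the unadjusted p was 0.0154 and the adjusted p = 1. Without Control replicate 2 the value was 0.29.

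The other Onecut2 probe sets had the same sign. At 1460044_at the gene read 6.03, 5.50 and 5.43 in POMCDicerKO, against 5.42, 5.01 and 5.25 in control. The groups were apart by 0.0078 at a log2 fold change of 0.43 (SE 0.17). At 1440005_at they overlapped, with 6.42, 6.03 and 6.07 in POMCDicerKO and 6.20, 5.60 and 5.87 in control. The difference there was 0.28 (SE 0.17). The 3 probe sets were read on the same arrays, so their shared sign is not separate evidence. At all 3, array 1 was the highest of its group. Among the genes related to the members, Onecut1 had the smallest p, at 0.29 with a standard error of 0.09. Onecut1 read 5.72, 5.75 and 5.84 in POMCDicerKO, against 5.58, 5.56 and 5.30 in control, without overlap. Onecut3 was at -0.02.

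POU domain factors of class 3 drive neuron maturation in the hypothalamus. Pou3f4 (1422165_at) read 6.32, 6.17 and 6.30 in POMCDicerKO, against 6.51, 6.32 and 6.22 in control. These values overlapped at a log2 fold change of -0.086, and 1422164_at of the same gene was at -0.25 (SE 0.19). Pou3f1 and Pou3f3 were at -0.013 and -0.042. Pou3f3 ranged from 8.30 to 8.83 in POMCDicerKO and from 8.35 to 8.69 in control.

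The ventral and tuberal factors, which define the territory of the arcuate nucleus itself, were close between the groups. Of these, Nkx2-1, Hmx2 and Hmx3 had means of 5.53, 4.27 and 4.93, in the lower part of the scale where differences are compressed. Nkx2-1, the homeodomain factor that the ventral hypothalamus needs to form, read 5.46, 5.63 and 5.56 in POMCDicerKO, against 5.47, 5.45 and 5.60 in control. Its log2 fold change was 0.045, with a 95% interval of -0.13 to 0.22. Nkx2-2, a hedgehog-induced factor also made by oligodendrocyte precursors, read 7.49, 7.31 and 7.31 in POMCDicerKO, against 7.26, 7.48 and 7.32 in control. The 2 groups covered the same range, at 0.016 with a 95% interval of -0.18 to 0.22. Nkx2-4, a paralog of Nkx2-1, was at -0.065 at 1432863_a_at and 0.13 at 1432862_at, where the standard errors were 0.14 and 0.078.

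Six3 and Sox3 act at the front and midline of the ventral forebrain and in the infundibulum. Sox3 (1435192_at) read 7.40, 7.59 and 7.65 in POMCDicerKO, against 7.20, 8.11 and 7.57 in control. The 3 controls spanned a wider range than the 3 knockouts, with control 2 highest and control 1 lowest of all 6 arrays. Its log2 fold change was -0.08 (SE 0.21), and Sox3 was among the 4 genes with the largest SD over the arrays. Six3 (1427523_at) ranged from 9.29 to 9.55 in POMCDicerKO and from 9.11 to 9.72 in control, at 0.013. Hmx2 and Hmx3 are a neighbouring pair of homeodomain genes needed for the GHRH neurons of the arcuate nucleus. Hmx2 read 4.12, 4.44 and 4.10 in POMCDicerKO, against 4.11, 4.11 and 4.72 in control. Hmx3 read 4.97, 5.01 and 4.92 in POMCDicerKO, against 4.85, 4.72 and 5.14 in control. In both, control 3 was the highest of the 6 arrays and the groups overlapped, at log2 fold changes of -0.095 and 0.064. Over the 7 measured genes of this group, 4 were higher and 3 lower, with a median of 0.013, and the groups overlapped at each of the 7.

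Foxp1 and Foxp2 are forkhead repressors found in subsets of postmitotic neurons, among them posterior and subthalamic ones. Foxp2 (1438231_at) read 7.37, 7.21 and 6.86 in POMCDicerKO, against 7.66, 7.18 and 7.46 in control. Control 2 lay among the POMCDicerKO arrays, so the groups overlapped. The difference was -0.29 on the log2 scale (SE 0.16, 95% interval -0.66 to 0.08). All 6 Foxp2 probe sets were lower, from -0.51 at 1440108_at to -0.017 at 1441365_at, and none was apart from control. At 1440108_at POMCDicerKO read 7.20, 6.84 and 6.12 and control 7.38, 7.00 and 7.31. At both 1438231_at and 1440108_at, POMCDicerKO 3 was the lowest array. Without POMCDicerKO replicate 3 the value at 1438231_at was -0.15, and without Control replicate 1 it was -0.18. All 8 Foxp1 probe sets were lower too, but only from -0.11 to -0.0069. At 1435222_at Foxp1 read 8.06, 8.001 and 8.16 in POMCDicerKO, against 8.44, 7.81 and 8.06 in control, where control 1 was the highest and control 2 the lowest.

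Meis1, Meis2 and Pbx3 encode TALE homeodomain cofactors that bind DNA together with other homeodomain proteins. Meis1 (1450992_a_at) read 6.18, 5.83 and 5.84 in POMCDicerKO, against 5.70, 5.93 and 5.69 in control. The log2 fold change was 0.18 (SE 0.12), and 0.061 without POMCDicerKO replicate 1. The other 2 Meis1 probe sets were at -0.034 and -0.024. Meis2 (1457632_s_at) read 5.65, 5.67 and 5.74 in POMCDicerKO, against 6.15, 5.30 and 5.34 in control. The knockouts lay close together, while control 1 stood far above both other controls, and Meis2 had the third largest SD of the 34 genes. Its log2 fold change was 0.094 with a standard error of 0.21. Pbx3 (1447640_s_at) read 8.64, 8.51 and 8.22 in POMCDicerKO, against 8.83, 8.26 and 8.68 in control, at -0.13 with a standard error of 0.16.

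The orphan nuclear receptors Nr2f1 and Nr2f2 (COUP-TF) and the Wnt effector Tcf7l2 differed little. Nr2f2 (1416159_at) read 10.03, 10.00 and 9.97 in POMCDicerKO, against 9.93, 9.98 and 10.00 in control. It had the smallest spread over arrays of the 34 genes, and its log2 fold change was 0.026, with a 95% interval of -0.12 to 0.17. Nr2f1 (1418157_at) was at 0.028 with a standard error of 0.10. Tcf7l2 (1429428_at), which marks thalamic neurons and the oligodendrocytes that have just left the precursor stage, read 8.39, 8.26 and 8.13 in POMCDicerKO, against 8.24, 8.46 and 8.31 in control. Its log2 fold change was -0.077 with a standard error of 0.092, and its 4 probe sets ran from -0.22 to 0.046.

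**Figure D3:**
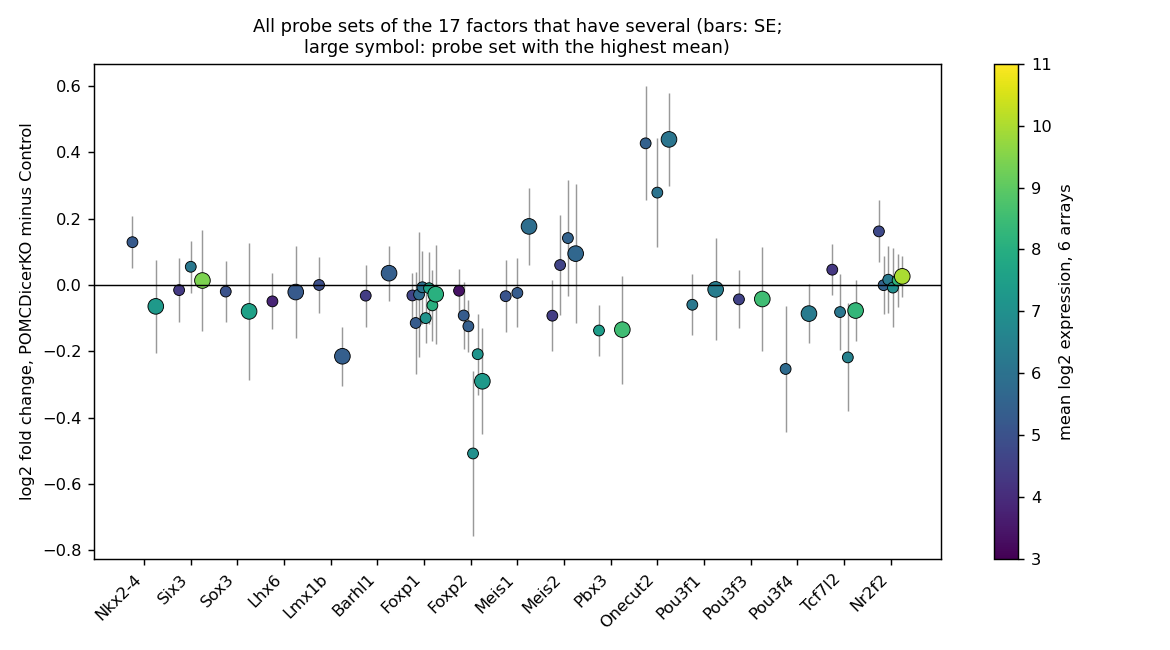
Log2 fold change (POMCDicerKO minus control, y axis) at every probe set of the 17 factors with several, with limma's standard errors; colour gives the mean log2 level over 6 arrays and the large symbol is the highest-mean probe set. The 3 Onecut2 probe sets lie between 0.28 and 0.44 and the 6 Foxp2 probe sets between -0.51 and -0.017, while those of Nkx2-4, Meis1, Meis2 and Nr2f2 fall on both sides of 0.

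Of the 34 genes, 17 had several probe sets, and for 10 of those all probe sets had the same sign. Most of the 10 have only 2 probe sets, and Lmx1b is among them through a value of -2.0e-05 at 1421769_at.

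The arrays that stood out differed between the role groups. Over the TALE cofactors, control 1 was 0.24 above the mean of the controls and control 2 was at -0.30, and over the FoxP genes they were at 0.28 and -0.27. The POMCDicerKO arrays lay between them, at 0.054, 0.057 and 0.065 for the TALE cofactors and -0.052, -0.16 and -0.26 for the FoxP genes. Over the ventral and tuberal genes the same pair of controls was reversed, with control 1 at -0.096 and control 2 at 0.13. Over the POU and Onecut genes the knockouts spread more widely, at 0.28, -0.20 and 0.02 in POMCDicerKO, against 0.13, -0.12 and 0.002 in control. Markers of neighbouring regions differed between the same arrays. The 6 paraventricular and supraoptic genes stood at 0.11, -0.061 and -0.03 in POMCDicerKO, against 0.60, -0.18 and -0.16 in control. The 5 tanycyte and ependymal genes stood at -0.28, 0.14 and -0.11 in POMCDicerKO, against -0.20, 0.32 and -0.12 in control. The part of dissection or cell makeup in the spread of the patterning genes was not tested.

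Over none of the 7 role groups (0) were the array medians of POMCDicerKO and control apart. Among 17 marker lists for regions and cell types, 4 had array medians that did not overlap, 3 higher and 1 lower in POMCDicerKO. The higher ones were thalamus (0.18, 0.059 and 0.083 in POMCDicerKO, against -0.03, 0.005 and -0.064 in control), microglia, and endothelium and pericyte. All 6 microglia genes were higher, but only 4 of the 5 thalamus genes and 4 of the 5 endothelium and pericyte genes. The other endothelium and pericyte gene was lower, at -0.28. It was the only 1 of those 5 with an unadjusted p under 0.05 by limma. The lower one was arcuate neuron genes, at -0.20, -0.16 and -0.12 in POMCDicerKO and -0.12, 0.13 and -0.006 in control. That separation was very small, with POMCDicerKO 3 at -0.1236 and control 1 at -0.1222. All 9 measured genes of the list were lower, and 2 did not overlap (22.2%, beside 6.44% of all genes). These were Slc6a3, at -0.36 (SE 0.084), and Pomc, at -0.69 (SE 0.27). Pomc (1433800_a_at) read 9.35, 9.71 and 9.43 in POMCDicerKO, against 9.94, 10.87 and 9.76 in control. At its other probe set, 1455858_x_at, Pomc was at -0.67 (SE 0.22) and the groups overlapped. Of 83 measured marker genes 0 passed the adjusted threshold of limma.

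Other lists were set beside Irx3 and Onecut2 array by array. Meningeal and fibroblast genes were at -0.53, -1.10 and -1.48 in POMCDicerKO, against 0.33, 0.48 and -0.84 in control. All 8 of these genes were lower, with a median of -0.98. Subthalamic and posterior genes (Foxa1 and Foxa2) were at -0.067, -0.31 and -0.20 in POMCDicerKO, against 0.21, -0.32 and 0.11 in control. That list rests on 2 measured genes with mean levels of 4.60 and 5.25, 1 lower at -0.40 and 1 higher at 0.013. The thalamus list, given above, was higher in POMCDicerKO, the opposite direction to Irx3. Whether meningeal, posterior or thalamic tissue had a part in the Irx3 difference was not tested. Myelin genes were at 0.85, 0.097 and 0.51 in POMCDicerKO, against 0.13, -0.14 and 0.042 in control. Array 1 was the highest of its group for myelin genes and for Onecut2, and control 2 the lowest for both. The paraventricular and supraoptic genes, given above, had the same order of these arrays, so it was not particular to myelin. Whether myelin, other cell types or neighbouring regions had a part in the Onecut2 difference was not tested. With control 3 as the only control, a setting chosen after the data were seen in which the spread comes from the POMCDicerKO arrays alone, Irx3 was at -0.55, Irx5 at -0.28, Onecut2 at 0.40, Dlx6 at 0.26 and Dlx5 at -0.24.

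**Figure D4:**
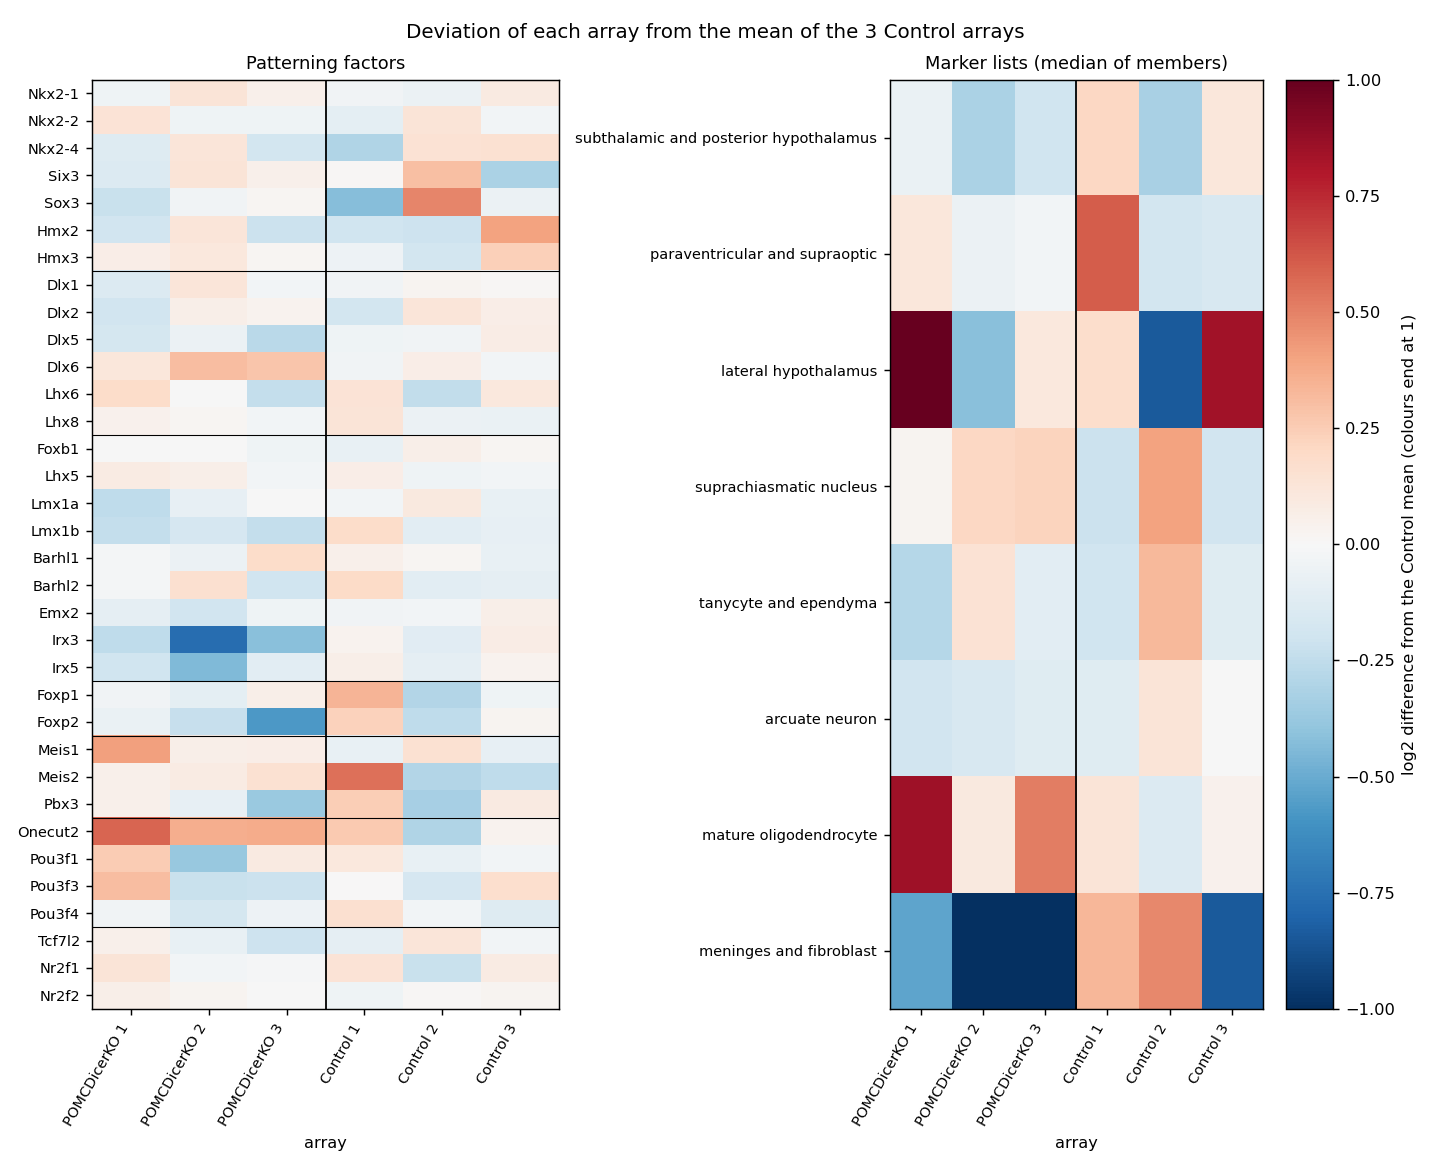
Log2 difference of each array from the mean of the 3 control arrays, for the 34 factors in role groups (left) and for the median of 8 marker lists (right), with POMCDicerKO arrays left of control and colours that end at 1 in either direction. Irx3 and Irx5 are blue in all 3 POMCDicerKO columns and Onecut2 is red, while for Meis2, Foxp1 and Sox3 the highest and the lowest array are both controls.

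Genes related to the members were read in the same way, from lists of other hypothalamic transcription factors, of paralogs and of patterning signals. Of 23 measured transcription factors out of 26, 0 passed the adjusted threshold in either direction, 8 were higher and 15 lower, and the median was -0.07. The 3 with the smallest p were Fezf2, a zinc finger factor of forebrain neurons, at -0.24, Isl1 at -0.19 and Tbx3 at -0.53. Fezf2 read 4.74, 4.75 and 4.74 in POMCDicerKO, against 5.19, 4.80 and 4.95 in control. It was the only gene of that list without overlap, 4.35% of the list, beside 6.44% of all genes. Its mean level of 4.86 lies in the lower part of the scale.

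Of 19 measured paralogs out of 21, 8 were higher, 11 lower and 0 passed, with a median of -0.02. After Onecut1, the smallest p belonged to the Wnt effector Lef1, also on the thalamus list, at 0.12 and to Irx4 at 0.11. Of the 23 patterning signals, 9 were higher, 14 lower and 0 passed, with a median of -0.04. The morphogen Shh was at 0.06, its receptor Ptch1 at 0.01 and its target Gli1 at -0.08. The smallest p values were those of Bmp7, a BMP ligand, at -0.21, Spry2, a feedback inhibitor of FGF signalling, at -0.17, and the Wnt receptor Fzd5 at -0.44. Fzd5 read 7.88, 8.90 and 8.50 in POMCDicerKO, against 8.62, 9.09 and 8.88 in control, where POMCDicerKO 1 alone lay far below. No gene of this list was without overlap.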

How the data were processed

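The authors deposited log2 expression, with a single value for each probe set on each array. RMA and affy are named in the submitters' processing notes, without versions in the sources used here. RMA normalises arrays by quantiles, so a shift shared by most transcripts would be gone. Values were used as deposited; 64 AFFX control probe sets were left out and 0 sample columns were unused. Array medians lay between 6.02 and 6.05. The number of arrays limits the precision.

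Probe sets were named from the platform annotation, where 34945 had 1 symbol and 932 several. Symbols were updated by Entrez identifier through the RefSeq table of GRCm38.p6 (34741 found), which also gave chromosomes and gene order. Each of 18193 genes was read at its probe set with the highest mean. Groups came from the sample titles. The labels call the samples independent; whether each held 1 animal is not given. They give no scan or hybridisation batch.

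The groups were compared with limma 3.58.1 (lmFit, eBayes; R 4.3.3). Adjustment was by Benjamini-Hochberg over all tested probe sets, at 0.05. Differences run POMCDicerKO minus control and carry limma's standard errors (SE) and 95% intervals. Single values also had a two-sided exact permutation test. The script was tested on simulated data. Gene lists are described by counts and medians, with no set test; a list's value on an array is the median, over its genes, of the difference from the control mean. All array values are given for the 16 members with the smallest p, the 4 with the largest SD, those without overlap, Nkx2-1 and Nkx2-2, and of each related list 3 genes with the smallest p are named; the values of other genes, such as Onecut3, Shh and the other Irx genes, were added after the data were seen. Members and lists were chosen with earlier results of these data known.

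Alternatives were array medians set equal, quantile normalisation once more, a filter at a mean of 6, a trended robust prior, no moderation, a replicate block, averaging the probe sets of each gene, and leaving out each array. Control 3 as the only control was added after the data were seen.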

Additional observations from a re-analysis of the deposited data

How the results depend on the processing

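No patterning factor passed limma's adjusted threshold under any alternative, and the count of their probe sets past it was 0 throughout. Over all probe sets the count was 0, with 1098 at an unadjusted p under 0.05. It was 1 with a trended, robust prior, 1 with control 3 as the only control, and 0 to 2 with single arrays left out. The count of members without overlap was 7 to 12 with single arrays left out, where 12 came without Control replicate 1 (35.3%, beside 18.5% of all genes), and 19 with control 3 as the only control (55.9%, beside 43.6% of all genes). The low end of 7 came without POMCDicerKO replicate 2 (20.6%, beside 15.6% of all genes there and 6.44% with all 6 arrays). Fewer arrays make separation easier, for the members and for all genes. With a lone control the spread comes from the POMCDicerKO arrays alone, and that control is assumed to vary like them, so the counts of that setting say nothing about stability. The 7 genes apart over all 6 arrays had to stay apart in each of these settings, because leaving out arrays cannot make separated groups overlap. The median of the members ran from -0.04 to -0.0059 with single arrays left out, and was -0.021 with the replicate block. With that block 0 probe sets passed, members or others. The block changed no call. Same-numbered arrays deviated from their group means with r of 0.128, 0.0787 and 0.12; not every one was over 0.1, so the numbers were not taken as pairs. Each array correlated best with its own number, which is a hint from the data and not from the design. Of the 34 genes, 16 kept their sign under the alternatives run for them and 18 did not, though none of the 18 was called.

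With single arrays left out, those genes ran over these ranges: Nkx2-2 -0.042 to 0.0797, Nkx2-4 -0.22 to 0.013, Six3 -0.14 to 0.16, Sox3 -0.29 to 0.16, Hmx2 -0.20 to 0.11 and Hmx3 -0.029 to 0.18. Dlx1 ran from -0.082 to 0.049, Dlx2 -0.13 to 0.0445, Lhx6 -0.14 to 0.088, Lhx8 -0.022 to 0.073, Foxb1 -0.054 to 0.010, Barhl1 -0.038 to 0.081 and Barhl2 -0.11 to 0.074. Foxp1 ran from -0.18 to 0.14, Meis2 -0.054 to 0.37, Pou3f1 -0.15 to 0.17, Pou3f3 -0.22 to 0.048 and Nr2f1 -0.082 to 0.0975. Averaging its probe sets, Nkx2-4 was at 0.032. The causes were not tested. Signal over background limits 14 of the 34 genes, whose means lay under 6.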

Other observations

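The genes next to the members with the clearest separation were looked up after the values were seen, in RefSeq gene order (GRCm38.p6), and described without a test. Around Irx3 the nearest genes with a probe set of their own are Fto, the demethylase gene whose introns hold regulatory DNA of Irx3, on 1 side and Crnde, Irx5, Irx6 and Mmp2 on the other. Fto read 10.36, 10.30 and 10.37 in POMCDicerKO, against 10.37, 10.32 and 10.36 in control, a log2 fold change of -0.01. The long noncoding transcript Crnde, next to Irx5, was at -0.15, and Mmp2 at -0.10. Crnde read 5.04, 5.16 and 5.15 in POMCDicerKO, against 5.51, 5.07 and 5.23 in control, so that control 1 alone stood apart.

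The noncoding transcripts Dlx6os1 and Dlx6os2 lie beside Dlx6, on chromosome 6. Dlx6os1 was at -0.04 and Dlx6os2 at 0.07, with standard errors of 0.09 and 0.07. The strand on which probe sets of such overlapping genes were designed was not checked. Beside Onecut2 lie St8sia3 and Fech. St8sia3, which encodes a brain sialyltransferase, was at -0.05. Fech, the last enzyme of haem synthesis, was at -0.21, and read 9.05, 8.99 and 9.01 in POMCDicerKO, against 9.02, 9.40 and 9.26 in control. Controls 2 and 3 were the high arrays there, as they were for the erythroid gene Alas2, at 6.38, 6.68 and 6.79 in POMCDicerKO and 6.69, 8.93 and 7.88 in control. The 3 red blood cell genes, all lower, stood at -0.99, -1.08 and -0.67 in POMCDicerKO, against -1.10, 0.68 and 0.045 in control. Whether blood content had a part in the Fech difference was not tested.

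A further probe set, 1429857_at, is annotated to both Pou3f3 and 2900092D14Rik and was left out of the 72. Its log2 fold change was 0.22 (SE 0.15), opposite in sign to the Pou3f3 probe sets at -0.042 and -0.043.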
